A study of Mus musculus with 10 samples.

Results

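The 44 genes described here are neighbours on proximal mouse chromosome 10, from Akap12 at the centromere side to Tbpl1, and were picked by name from a table of 54343 genes because their levels in MC38.T4 cells stood mostly below those in MC38 cells. Those levels are therefore a description, and no p-value is given for a member. All 44 symbols were found in the table. MC38.T4 and MC38 are mouse tumour cell lines grown in culture in the same serum-containing medium, and 5 libraries of polyA-selected RNA were sequenced from each. MC38.T4 was made by transfecting MC38 with a huMSLN.pcDNA3.1 vector for human mesothelin, sorting single clones (MC38.huMSLN.34), growing them as tumours in C57/BL6 mice for about 25 days, passaging the dissociated tumour cells 10 times and picking 1 clone with low mesothelin; the labels call it alike in culture and faster growing in mice. MC38 is the untransfected parental line bought from a vendor, labelled wild type. MC38.T4 is thus 1 clone, and transfection, cloning, growth in mice and return to culture cannot be told apart. The tissue label and design text call the cells melanoma, whereas the treatment text and library names call them colon carcinoma.

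Genes that sit side by side on a chromosome are mostly unrelated in function. What they share is the DNA segment itself, with its number of copies, its time of replication and its domains of open or closed chromatin, while each gene keeps its own promoter and the transcription factors that act on it. Neither DNA nor chromatin was measured in these libraries. The genes of this interval include signalling adaptors and kinases, transcription regulators, parts of the splicing, ribosome and mitochondrial translation machinery, and proteins of peroxisomes, vesicles, cilia and the cytoskeleton.

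Levels are FPKM, fragment counts corrected for gene length and for the size of each library. Read totals are not given, and the size of single-read steps put the depth of the libraries between 0.874 and 1.14 relative to MC38 replicate 1. A gene was tested where 5 or more of the 10 libraries gave it an FPKM of 1 or above, which held for 11110 genes, and a call is a limma adjusted p under 0.05. MC38.T4 and MC38 differed widely: 42.9% of the tested genes were called lower in MC38.T4 and 43.1% higher. Nothing in the labels ties the libraries to separate cultures, so p-values measure a spread that may be technical. Epithelial markers were low in both lines and went in both directions. Of 12 markers, only Grhl2 was tested (mean 0.0445 FPKM in MC38.T4 and 3.59 FPKM in MC38). Cdh1, the E-cadherin gene, averaged 1.004 FPKM in MC38.T4 and 0.0212 FPKM in MC38, Krt8 0.187 FPKM in MC38.T4 and 0.0118 FPKM in MC38, and Cdx2 was listed at 0 everywhere. The summed level of the 12 lay between 1.19 and 1.56 FPKM in MC38.T4 and between 3.99 and 4.67 FPKM in MC38. Melanocyte markers summed to between 1.85 and 2.07 FPKM in MC38.T4 and between 1.19 and 1.52 FPKM in MC38, with Tyr at 0; Mitf averaged 1.74 FPKM in MC38.T4 and 0.781 FPKM in MC38, and Pmel 0.178 FPKM in MC38.T4 and 0.522 FPKM in MC38.

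Most members were lower in MC38.T4, but not by a common fold. Of the 44 members, 34 were tested. Of these 30 (88.2%) were called lower, against 42.9% of all tested genes, 2 were called higher and 2 were not called. At least 2-fold lower levels were found for 16 of the 34, against 10.0% of all tested genes. The groups did not overlap, with MC38.T4 lower, for 29 of them, against 38.9% of all tested genes, and with MC38.T4 higher for 1, against 38.4%. Since these members were taken for this very difference, the counts only restate the choice. They include 2 members, Hebp2 and Phactr2, that passed the filter only through MC38, so that their direction was fixed by the filter. The sum of FPKM over the 44 members was 707 ± 10.5 in MC38.T4 and 1217 ± 6.3 in MC38 (SD, n = 5 each), or 0.147% and 0.262% of all FPKM in MC38.T4 and in MC38. In bulk RNA, fewer cells that express a gene and less RNA per cell cannot be told apart.

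The ratio of mean FPKM (MC38.T4 over MC38) had a median of 0.562 over the 34 tested members, with quartiles of 0.392 and 0.739. It ran from 0 for Hebp2, which passed the filter only through MC38, to 1.14 for Abracl. Only 12 of the 34 lay within 25% of the median ratio, between 0.422 and 0.703. On the scale of log2(FPKM + 1) the differences of the members had an interquartile range of 0.81, against 0.94 over all tested genes. The members' differences thus spread almost as widely as those of the transcriptome, around a lower centre (median -0.79, against 0.00). This spread was far beyond the measurement error: the SD within a line had a median of 0.06 over the members, and the SE of a member's difference was at most 0.09. The members' levels kept much of their order, with a Spearman correlation of 0.92 between MC38.T4 and MC38 across the 34 genes, which share the same libraries. The level in MC38 was hardly related to the size of the difference (Spearman 0.11 across the same 34 genes).

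**Figure D1:**
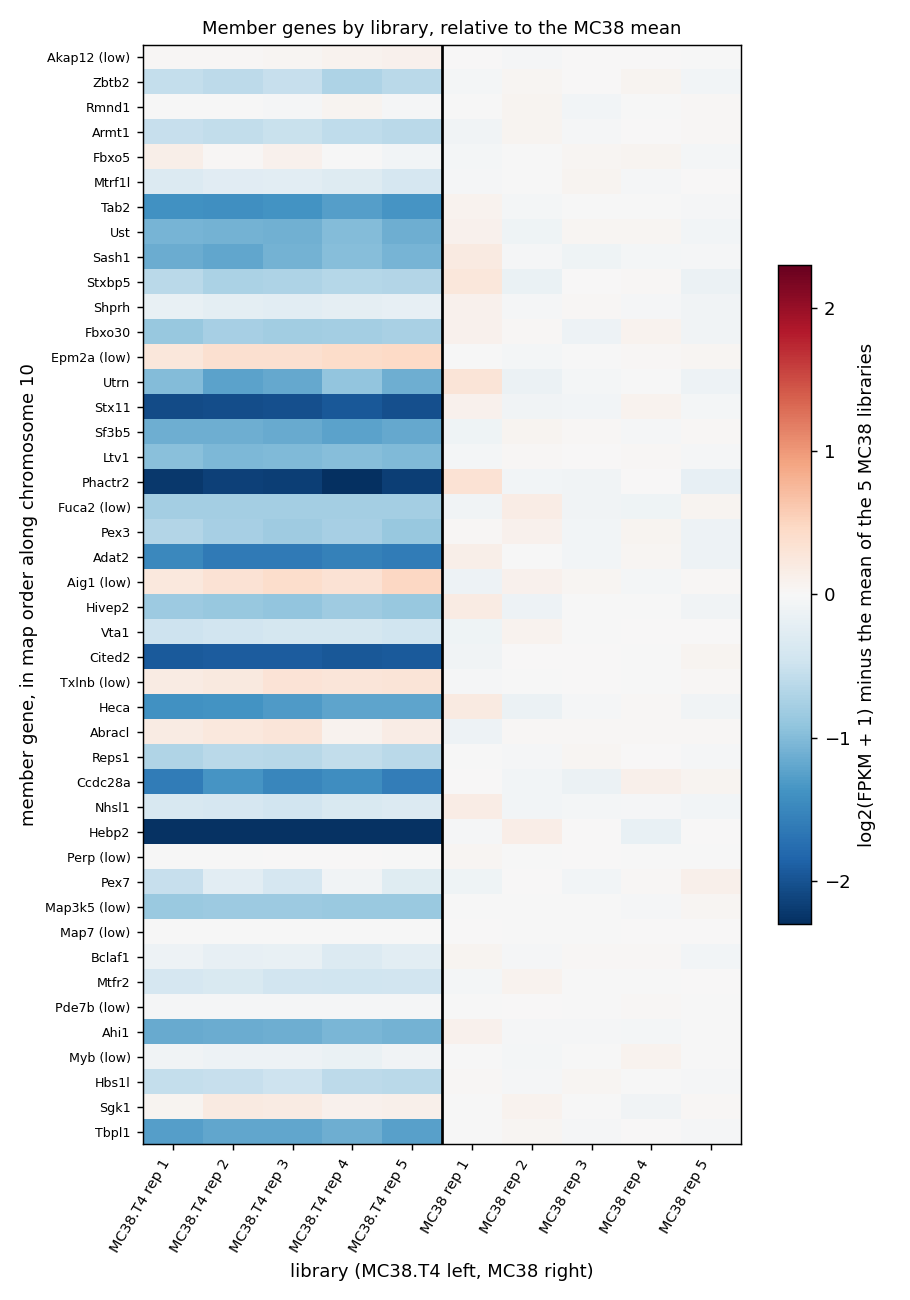
Each row is 1 of the 44 members in map order and each column 1 library, MC38.T4 on the left; colour gives log2(FPKM + 1) minus the mean of the 5 MC38 libraries, and "low" marks the 10 members that did not pass the filter. Blue rows of unequal depth run through the MC38.T4 side, broken among tested members by Rmnd1, Fbxo5, Abracl and Sgk1. Among members marked low, Epm2a, Aig1 and Txlnb are higher in MC38.T4, and Akap12, Perp, Map7 and Pde7b show next to no difference. The 5 libraries of a line look alike.

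Promoter sequence, which the choice of members did not use, was read from the RefSeq promoter table (GRCm38.p6, 250 bases before to 50 after the start), where 39 of the 44 members matched. Their G+C content had a median of 65.0%, against 61.3% over the promoters of 8675 tested genes, and 28 of the 39 (71.8%) had an observed over expected CpG ratio of at least 0.6, against 77.9% of those of tested genes. Over the 32 tested members alone the median was 64.0% and the share 71.9%. The motif shares that follow are over all 39, with members below the filter included. Motif letters were counted on both strands, and none of the 7 motifs searched contains another. GGGCGG, the GC box, was found in 29 of the 39 (74.4%), in 67.4% of the promoters of tested genes and in 35.9% of all 27025 promoters. CCAAT was found in 9 (23.1%, against 40.3% and 37.9%) and CACGTG, the E-box, in 6 (15.4%, against 10.7% and 7.24%). AACTG, a core MYB motif, was in 13 (33.3%, against 36.4% and 44.8%). TATAAA was in 1, Adat2 (2.56%, against 6.36% and 14.2%), the cyclic AMP element TGACGTCA in 1, Heca (2.56%, against 3.47% and 1.88%), and the AP-1 motif TGANTCA in none, against 4.61% and 7.93%. These are matches of letters, not sites of binding.

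The promoters of the tested members with the 3 lowest and the 3 highest ratios are shown as the 150 bases before the RefSeq start, to set unlike members of 1 interval side by side; capitals mark any of the 7 motifs on either strand, and the positions are GRCm38.p6, a build other than the authors' GRCm39. Hebp2 (chr10:18546077-18546226, minus strand), Phactr2 (chr10:13324290-13324439, minus strand) and Stx11 (chr10:12964260-12964409, minus strand) were the lowest of those tested.
Hebp2: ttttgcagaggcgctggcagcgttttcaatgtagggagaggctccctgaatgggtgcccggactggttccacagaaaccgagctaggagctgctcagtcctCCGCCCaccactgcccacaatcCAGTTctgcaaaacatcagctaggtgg
Phactr2: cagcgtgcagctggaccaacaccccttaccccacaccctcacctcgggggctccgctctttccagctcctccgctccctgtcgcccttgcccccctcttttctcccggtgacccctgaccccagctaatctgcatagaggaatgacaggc
Stx11: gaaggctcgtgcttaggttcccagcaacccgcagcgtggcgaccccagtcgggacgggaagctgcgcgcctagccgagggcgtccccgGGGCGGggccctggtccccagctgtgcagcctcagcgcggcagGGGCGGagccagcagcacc
Fbxo5 (chr10:5805466-5805615, minus strand), Sgk1 (chr10:21882034-21882183, plus strand) and Abracl (chr10:18023253-18023402, minus strand) were the highest of those tested.
Fbxo5: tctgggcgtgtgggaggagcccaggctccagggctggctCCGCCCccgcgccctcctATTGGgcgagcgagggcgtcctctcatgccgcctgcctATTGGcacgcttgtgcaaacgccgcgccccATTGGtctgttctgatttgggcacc
Sgk1: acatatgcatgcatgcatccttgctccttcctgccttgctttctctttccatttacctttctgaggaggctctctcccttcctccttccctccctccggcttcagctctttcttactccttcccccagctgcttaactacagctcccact
Abracl: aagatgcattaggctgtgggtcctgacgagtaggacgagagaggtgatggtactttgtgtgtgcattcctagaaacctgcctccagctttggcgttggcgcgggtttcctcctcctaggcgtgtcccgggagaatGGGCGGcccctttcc
Fbxo5 held 4 motif matches, 3 of them CCAAT letters read on the other strand, while Phactr2 and Sgk1, a low and a high member, held none.

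Among transcription regulators, all 5 tested members were lower in MC38.T4. Of all 34 tested members 88.2% were called lower, and of all tested genes 42.9%. Counts by group, here and below, therefore restate the choice of members. Cited2 is a co-regulator that binds p300 and CBP and limits the access of HIF-1 to them. Its level was 59.1, 60.4, 60.5, 58.9 and 59.4 FPKM in the MC38.T4 libraries, against 217, 232, 232, 228 and 239 FPKM in the MC38 libraries. It was the most abundant member in MC38, and its ratio was 0.26, with log2 difference -1.93 (SE 0.03). Tbpl1, a relative of the TATA-binding protein and the last member of the interval, stood at 38.2, 39.9, 40.3, 42.4 and 38.5 FPKM in the MC38.T4 libraries, against 92.9, 96.5, 91.4, 94.3 and 91 FPKM in the MC38 libraries, a ratio of 0.428. Zbtb2, a zinc finger regulator near the other end, was measured at 6.14, 5.84, 6.21, 5.39 and 5.78 FPKM in the MC38.T4 libraries, against 9.09, 9.78, 9.53, 9.92 and 8.98 FPKM in the MC38 libraries, a ratio of 0.621. In all 3 genes every MC38.T4 library lay below every MC38 library. Hivep2, a large zinc finger protein, averaged 2.03 ± 0.082 FPKM in MC38.T4 and 4.52 ± 0.47 FPKM in MC38 (SD, n = 5 each, as for all means given with an error). Bclaf1, a nuclear RNA-binding regulator, was close to equal, at 52.9, 50.9, 51.5, 46.2 and 48.9 FPKM in the MC38.T4 libraries, against 60.1, 56.5, 58.6, 58.6 and 55.1 FPKM in the MC38 libraries; the libraries did not overlap, and the ratio was 0.867. Myb, the transcription factor of blood and crypt progenitors, was below the filter. It read 0.139, 0.106, 0.113, 0.0773 and 0.134 FPKM in the MC38.T4 libraries, against 0.189, 0.168, 0.196, 0.272 and 0.198 FPKM in the MC38 libraries, so MC38.T4 was lower without overlap, far under the filter.

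Signalling members differed in direction. Tab2, the ubiquitin-binding adaptor that activates the kinase TAK1, averaged 42.4 ± 1.7 FPKM in MC38.T4 and 111 ± 3.9 FPKM in MC38, a ratio of 0.383. Sash1, an adaptor protein, averaged 1.86 ± 0.16 FPKM in MC38.T4 and 5.09 ± 0.5 FPKM in MC38. Sgk1, a kinase induced by serum and glucocorticoids, is the member next to Tbpl1 on the list and did not share its low level. It read 93.4, 103, 101, 95.6 and 96.1 FPKM in the MC38.T4 libraries, against 88.2, 94.7, 88.4, 83.7 and 90.8 FPKM in the MC38 libraries. The groups overlapped, at a ratio of 1.1, and the call of a higher level was lost after rescaling to TPM. Map3k5, the stress kinase ASK1, just missed the filter, at 0.126, 0.138, 0.133, 0.125 and 0.124 FPKM in the MC38.T4 libraries, against 1.03, 1.03, 1.02, 0.992 and 1.09 FPKM in the MC38 libraries. Its MC38.T4 libraries were all far below MC38, at a ratio of 0.125. Akap12, a scaffold for protein kinase A, and Pde7b, a cyclic AMP phosphodiesterase, were close to 0 in both lines, at 0.0519 FPKM in MC38.T4 and 0.0136 FPKM in MC38 for Akap12, while Pde7b was listed at 0 in every MC38.T4 library and averaged 0.0186 FPKM in MC38.

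Of the members that make RNA and protein, 5 of 6 were lower, against 42.9% of all tested genes. Adat2, the catalytic subunit of the deaminase that makes inosine in tRNA anticodons, stood at 7.23, 6.43, 6.39, 6.78 and 6.51 FPKM in the MC38.T4 libraries, against 24, 21.9, 20.9, 22.7 and 20.2 FPKM in the MC38 libraries. Its groups lay far apart, at a ratio of 0.304 with log2 difference -1.58 (SE 0.05). Its head-to-head neighbour Pex3 was less low. Sf3b5, a small subunit of the SF3B splicing complex, averaged 11.9 ± 0.39 FPKM in MC38.T4 and 28 ± 1.2 FPKM in MC38. Ltv1, an assembly factor of the small ribosomal subunit, averaged 28.7 ± 0.64 FPKM in MC38.T4 and 58.4 ± 1.5 FPKM in MC38. Both sat at less than 0.50 of the MC38 mean. Hbs1l, which with Pelota frees stalled ribosomes, averaged 49.1 ± 2.2 FPKM in MC38.T4 and 72.5 ± 1.5 FPKM in MC38. The mitochondrial release factor gene Mtrf1l averaged 4.96 ± 0.24 FPKM in MC38.T4 and 6.36 ± 0.17 FPKM in MC38. Rmnd1, needed for mitochondrial translation, did not differ detectably: it read 10.2, 10.3, 10.2, 10.8 and 10.04 FPKM in the MC38.T4 libraries, against 10.2, 10.8, 9.87, 10.3 and 10.5 FPKM in the MC38 libraries. The ratio was 0.999 and the log2 difference -0.00 (SE 0.04), with groups that overlapped throughout.

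Among ubiquitin ligase genes, Fbxo5, whose product EMI1 holds back the anaphase-promoting complex, read 37.2, 34.6, 36.4, 33.6 and 32.5 FPKM in the MC38.T4 libraries, against 33, 33.8, 34.8, 35.2 and 32.6 FPKM in the MC38 libraries. The groups overlapped, and the log2 difference was 0.04 (SE 0.04). Its close neighbour Mtrf1l was lower, at a ratio of 0.781. Shprh, a ligase that modifies PCNA at damaged DNA, was a little lower, at 5.98, 5.7, 5.64, 5.86 and 5.91 FPKM in the MC38.T4 libraries, against 7.45, 6.75, 7.01, 6.69 and 6.46 FPKM in the MC38 libraries, with no overlap and a ratio of 0.847. Fbxo30, an F-box protein gene at the middle of the member list by ratio, stood at 12.7, 13.8, 13.4, 13.7 and 13.9 FPKM in the MC38.T4 libraries, against 25.8, 24.5, 22.3, 25.6 and 22.8 FPKM in the MC38 libraries, a ratio of 0.559.

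All 6 members of membrane traffic and peroxisomes were called lower, against 42.9% of all tested genes. Stx11, a syntaxin best known from granule release by killer lymphocytes, stood at 3.82, 3.91, 3.94, 4.22 and 3.98 FPKM in the MC38.T4 libraries, against 20.4, 18.1, 18.3, 20.3 and 18.5 FPKM in the MC38 libraries. With a ratio of 0.208, it was the member with the third lowest ratio among those tested. Stxbp5, or tomosyn, which binds syntaxins and restrains fusion, was at 15.7, 14.6, 14.7, 15.3 and 15 FPKM in the MC38.T4 libraries, against 29.7, 22.2, 24.7, 25.1 and 22.2 FPKM in the MC38 libraries. The highest MC38 value was that of replicate 1, and the groups did not overlap (ratio 0.608). Pex3, which brings membrane proteins to peroxisomes, read 14.4, 13.5, 13, 13.5 and 12.5 FPKM in the MC38.T4 libraries, against 24, 25.2, 22.6, 24.9 and 21.6 FPKM in the MC38 libraries, a ratio of 0.565. Pex7, the receptor for a small class of peroxisomal matrix enzymes, averaged 7.0 ± 0.92 FPKM in MC38.T4 and 8.82 ± 0.56 FPKM in MC38, and its groups overlapped through MC38.T4 replicate 4. Vta1, the activator of the VPS4 ATPase, averaged 27.3 ± 0.62 FPKM in MC38.T4 and 37.4 ± 1.6 FPKM in MC38, and the endocytic adaptor Reps1 36.6 ± 1.1 FPKM in MC38.T4 and 57 ± 0.99 FPKM in MC38. This group held 1 member at least 2-fold lower, Stx11.

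**Figure D2:**
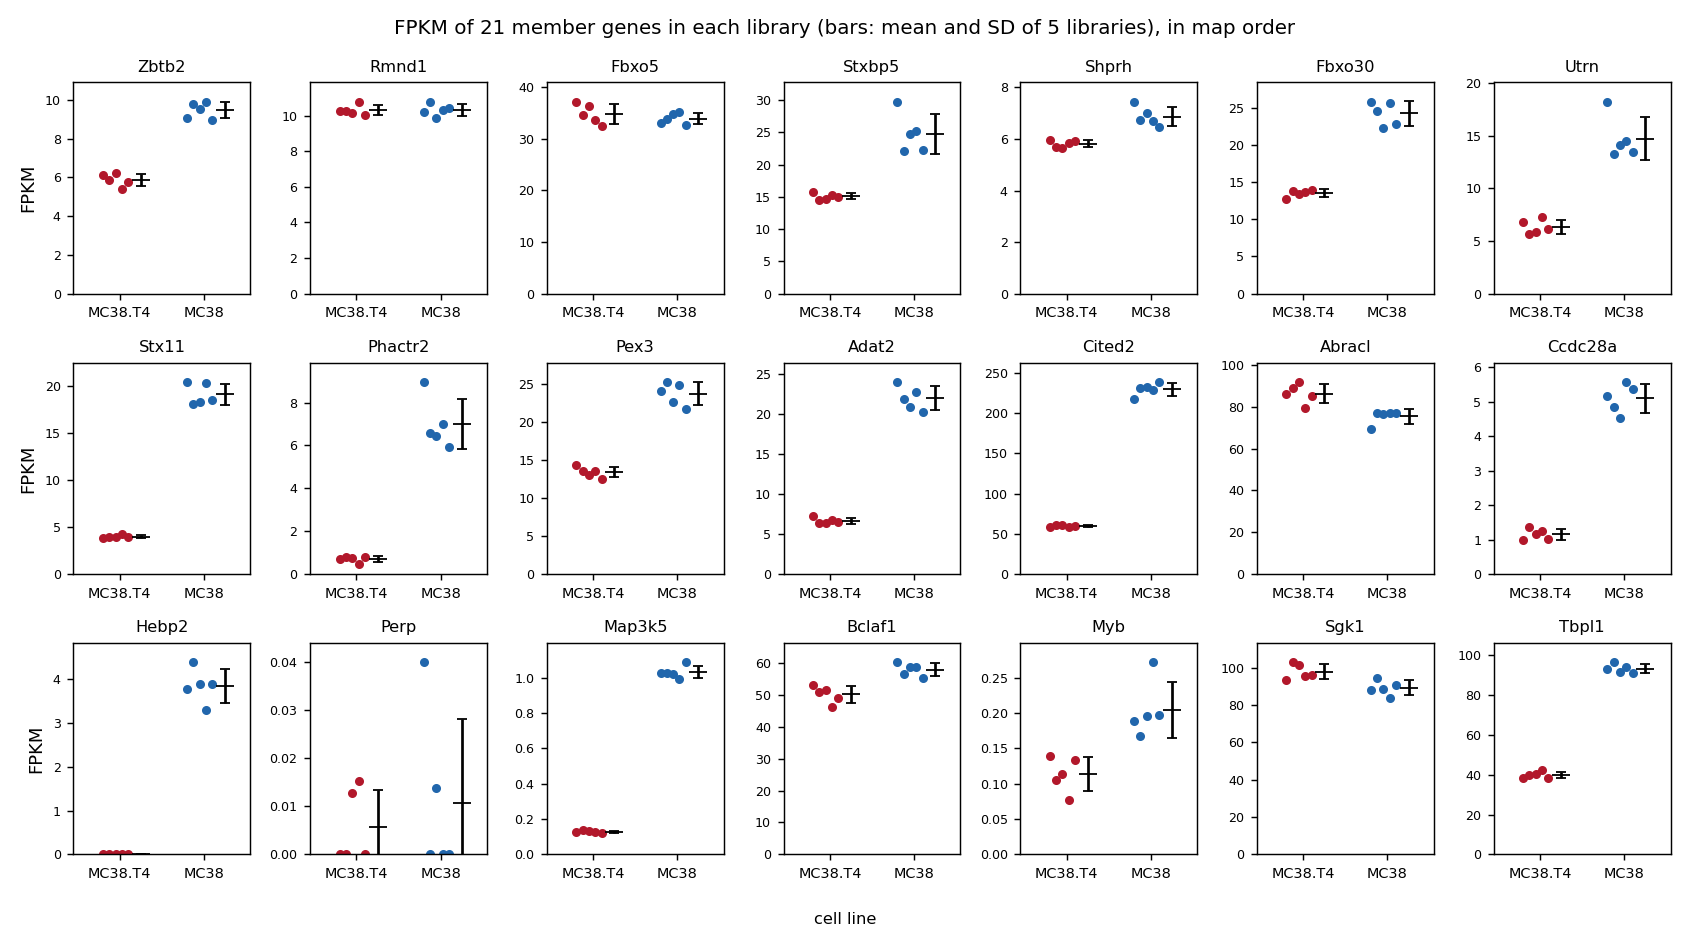
FPKM of the 21 fully described members in map order, with MC38.T4 in red on the left and MC38 in blue on the right of each panel; dots are libraries and bars the mean and SD of 5, on linear axes from 0. The lines separate clearly in Cited2, Stx11, Phactr2 and Hebp2 and overlap in Rmnd1, Fbxo5, Sgk1 and Perp, the last with levels near 0.

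Cytoskeletal, junction and ciliary members held both the second lowest and the highest ratio among tested members. Phactr2, a regulator of actin and protein phosphatase, was at 0.699, 0.799, 0.763, 0.484 and 0.777 FPKM in the MC38.T4 libraries, against 8.96, 6.6, 6.46, 6.99 and 5.91 FPKM in the MC38 libraries. The ratio was 0.101, and its MC38.T4 libraries were all under the filter, so it was tested only through its level in MC38. Utrn, the dystrophin relative that links actin to dystroglycan, read 6.82, 5.66, 5.88, 7.29 and 6.18 FPKM in the MC38.T4 libraries, against 18.2, 13.3, 14.1, 14.5 and 13.5 FPKM in the MC38 libraries. MC38 replicate 1 was highest, and every MC38.T4 library was below every MC38 library (ratio 0.433). Ahi1, a protein of the ciliary base, averaged 5.22 ± 0.19 FPKM in MC38.T4 and 12.5 ± 0.51 FPKM in MC38, and Nhsl1, an actin regulator of cell migration, 5.81 ± 0.23 FPKM in MC38.T4 and 7.83 ± 0.63 FPKM in MC38. Abracl, a small protein linked to actin and motility, went the other way, at 86, 88.8, 91.8, 79.4 and 85 FPKM in the MC38.T4 libraries, against 69.2, 77.1, 76.7, 76.9 and 76.9 FPKM in the MC38 libraries. It was called higher without overlap, at a ratio of 1.14. Of the low members, Perp, a desmosomal target of p53, read 0 in 3 libraries of either line and at no more than 0.0399 FPKM elsewhere. The microtubule-binding gene Map7 was likewise near 0, and Txlnb read between 0.161 and 0.265 FPKM in MC38.T4 and between 0 and 0.0344 FPKM in MC38.

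The remaining members are enzymes and less studied genes, of which all 6 tested were lower, against 42.9% of all tested genes. Hebp2, a heme-binding protein gene, showed the widest gap, with 0 FPKM in each MC38.T4 library and 3.78, 4.39, 3.90, 3.30 and 3.89 FPKM in MC38. It too passed the filter only through MC38, and no fold is given against a level of 0. Fuca2, a secreted fucosidase gene below the filter, had the same form: it read 0.0118 FPKM in MC38.T4 replicate 1 and 0 in the other 4, against 0.614 to 0.958 FPKM in MC38. Ccdc28a, a coiled-coil protein gene, read 0.997, 1.36, 1.15, 1.26 and 1.02 FPKM in the MC38.T4 libraries, against 5.15, 4.85, 4.52, 5.57 and 5.36 FPKM in the MC38 libraries, without overlap and at a ratio of 0.227. Heca, the relative of fly headcase, averaged 5.75 ± 0.39 FPKM in MC38.T4 and 15.6 ± 1.6 FPKM in MC38. The sulfotransferase gene Ust averaged 3.87 ± 0.17 FPKM in MC38.T4 and 9.3 ± 0.6 FPKM in MC38, the methyltransferase gene Armt1 12 ± 0.4 FPKM in MC38.T4 and 18.2 ± 0.7 FPKM in MC38 and the mitochondrial fission gene Mtfr2 8.95 ± 0.31 FPKM in MC38.T4 and 12.3 ± 0.42 FPKM in MC38. Epm2a, which encodes the glycogen phosphatase laforin, and Aig1, a lipid hydrolase gene, were below the filter and higher in MC38.T4, at 0.392 ± 0.069 FPKM in MC38.T4 and 0.073 ± 0.025 FPKM in MC38 for Epm2a and 0.799 ± 0.11 FPKM in MC38.T4 and 0.4 ± 0.081 FPKM in MC38 for Aig1. Over the 10 members below the filter, 4 were lower and 4 higher in MC38.T4 without overlap, and 2 overlapped. The like share over all genes below the filter was not computed. Some of these members, such as Pde7b and Akap12, lay near 0, so the count is a description only.

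Along the map the members fell into stretches of unlike level, split here after the values had been seen. From Zbtb2 to Mtrf1l 3 of 5 tested members were lower, with a median ratio of 0.781. The 15 tested members from Tab2 to Vta1 were all lower, 10 of them at least 2-fold, with a median ratio of 0.433. From Cited2 to Hebp2 the median ratio was 0.368 and 6 of 7 were lower. From Pex7 to Tbpl1 it was 0.730, again with 6 of 7 lower. Of all tested genes 42.9% were called lower and 10.0% lower by at least 2-fold, and 65.0% of those on chromosome 10 outside the interval were called lower. The members were chosen for this difference, so the counts by stretch restate the choice. Neighbours could still differ. Rmnd1 and Armt1 are transcribed away from each other from starts 79 bases apart in the GENCODE M21 annotation of GRCm38, yet their ratios were 0.999 and 0.661. Pex3 and Adat2 also lie head to head, their exons overlapping by 249 bases, and had ratios of 0.565 and 0.304. Whether the authors counted reads by strand is not given, so reads in that overlap (17% of the exon bases of Adat2, 5.25% of those of Pex3) may have been shared. Lats1, the Hippo kinase gene, and Pcmt1, a protein repair enzyme gene, are no members but lie in the interval. Their starts are also head to head in GENCODE M21, and their ratios were 0.420 and 0.538. In the RefSeq map order Nup43 (ratio 0.469) comes between them, so this pairing may depend on the annotation used.

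Genes of the interval that were not on the member list moved in the same direction for the most part. Between Akap12 and Tbpl1 another 24 genes were tested, of which 19 were called lower (79.2%), 2 higher and 3 not, with a median ratio of 0.587. Of all tested genes 42.9% were called lower, and of those on chromosome 10 outside the interval 65.0%. The interval is bounded by members picked as lower in these same libraries, so its other genes are no independent check. The 3 without a call are pseudogene models, and B230208H11Rik, among the 19, passed the filter only through MC38 (0.448 to 0.739 FPKM in MC38.T4, against 1.87 to 3.51 FPKM in MC38). Plagl1, an imprinted zinc finger gene, fell most, to 2.27 ± 0.15 FPKM in MC38.T4, against 17.3 ± 1.1 FPKM in MC38 (log2 difference -2.49, SE 0.05, limma adjusted p = 2.08e-15). Tnfaip3, which encodes the NF-kB inhibitor A20, stood at 1.55 ± 0.2 FPKM in MC38.T4 and 5.38 ± 0.074 FPKM in MC38 (log2 difference -1.33, SE 0.05, limma adjusted p = 3.85e-12). The adhesion receptor gene Adgrg6 was measured at 5.37 ± 0.42 FPKM in MC38.T4 and 14 ± 1.4 FPKM in MC38 (log2 difference -1.24, SE 0.06, limma adjusted p = 3.69e-11). The 2 rises were the estrogen receptor gene Esr1, with 4.56 ± 0.2 FPKM in MC38.T4 and 2.16 ± 0.23 FPKM in MC38 (log2 difference 0.82, SE 0.05, limma adjusted p = 9.94e-10), and the NKG2D ligand gene Raet1e, with 11 ± 0.23 FPKM in MC38.T4 and 5.32 ± 0.17 FPKM in MC38 (log2 difference 0.93, SE 0.04, limma adjusted p = 2.16e-12). How the authors handled reads shared among close relatives is not given, so Raet1e is uncertain to that extent. Members and other genes together gave 49 of 58 tested genes of the interval lower (84.5%), 4 higher and 5 without a call. Of the 49, 30 are members, which were chosen for this difference, so the pooled share largely restates the choice.

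Most tested genes on the rest of the chromosome were lower in MC38.T4 as well. Over the 474 tested genes of chromosome 10 outside the interval 308 (65.0%) were called lower and 121 higher, with a median log2 difference of -0.39 and a median ratio of 0.745. Among the 20 chromosomes examined, chromosome 10 as a whole had the lowest median log2 difference (-0.43 over 532 genes, 67.1% lower), and the highest was that of chromosome 16 (0.27, 28.4% lower). The running median over 15 tested genes was below 0 at 482 of 518 positions along chromosome 10. It lay between -1.24 and -0.37 within the interval, and reached -0.93 at its lowest outside. The lowest point of a chromosome that was lower along most of its length thus lay within the interval. Not all of the interval was that low: tested members from Pex7 to Tbpl1 had a median ratio of 0.730, against 0.745 outside the interval. No test compares the members with the rest of the chromosome, since they were chosen by this difference.

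**Figure D3:**
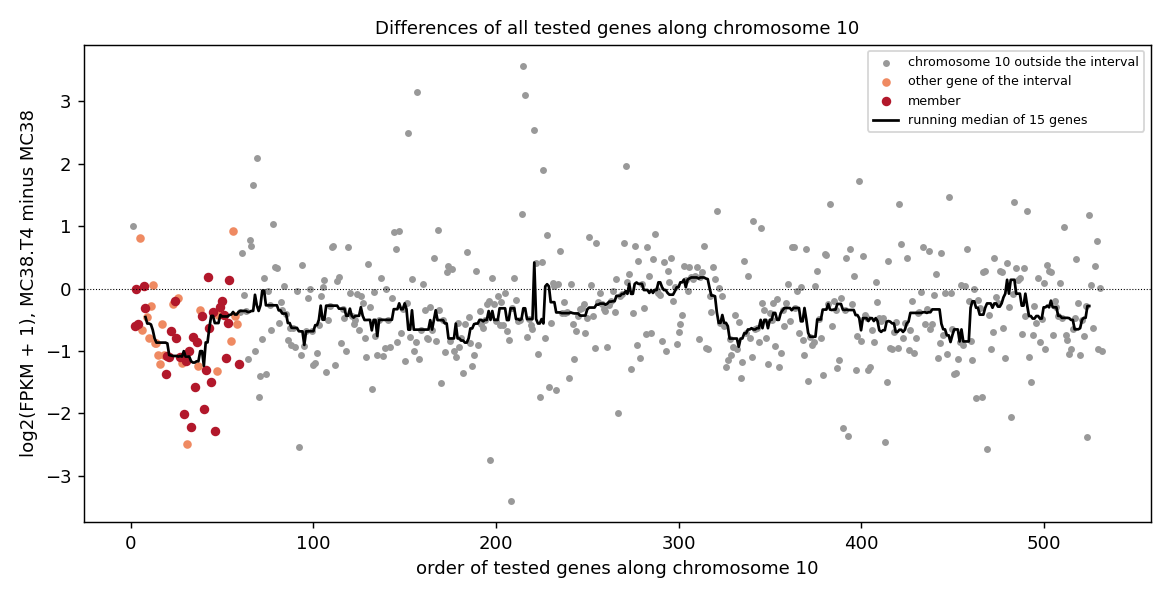
Each dot is 1 of 532 tested genes of chromosome 10 in map order, with the log2(FPKM + 1) difference, MC38.T4 minus MC38, on the vertical axis; red dots are members, orange dots other genes of the interval, grey dots the rest, and the line is the running median of 15 genes. The line has its lowest point, -1.24, within the interval and stays below 0 at 482 of 518 positions.

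The genes just beyond the interval went both ways. The only tested gene on the centromere side, the mitochondrial folate enzyme gene Mthfd1l, rose (44.3 ± 1.9 FPKM in MC38.T4 and 21.6 ± 0.59 FPKM in MC38; log2 difference 1.01, SE 0.04, limma adjusted p = 8.73e-13). Of the 15 nearest tested genes on the other side 9 were called lower and 6 higher, with a median ratio of 0.775. Among the 9, Eya4 and 9330159F19Rik were under 1 FPKM in every MC38.T4 library and passed the filter only through MC38. Ptprk, a receptor tyrosine phosphatase gene, fell to 8.16 FPKM in MC38.T4, against 29.7 FPKM in MC38 (log2 difference -1.74, SE 0.05, limma adjusted p = 3.27e-14), and Soga3 and the ubiquitin ligase gene Rnf146 fell by 1.39 and 1.37 on the log2 scale (limma adjusted p = 1.03e-13 for Soga3 and 5.03e-14 for Rnf146). Arhgap18, a RhoA-inactivating protein gene, rose to 22 FPKM in MC38.T4, against 4.39 FPKM in MC38 (log2 difference 2.09, SE 0.04, limma adjusted p = 2.23e-15), and the pseudogene model Gm4739 to 147 FPKM in MC38.T4, against 45.7 FPKM in MC38, where reads of a parent gene could contribute.

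**Figure D4:**
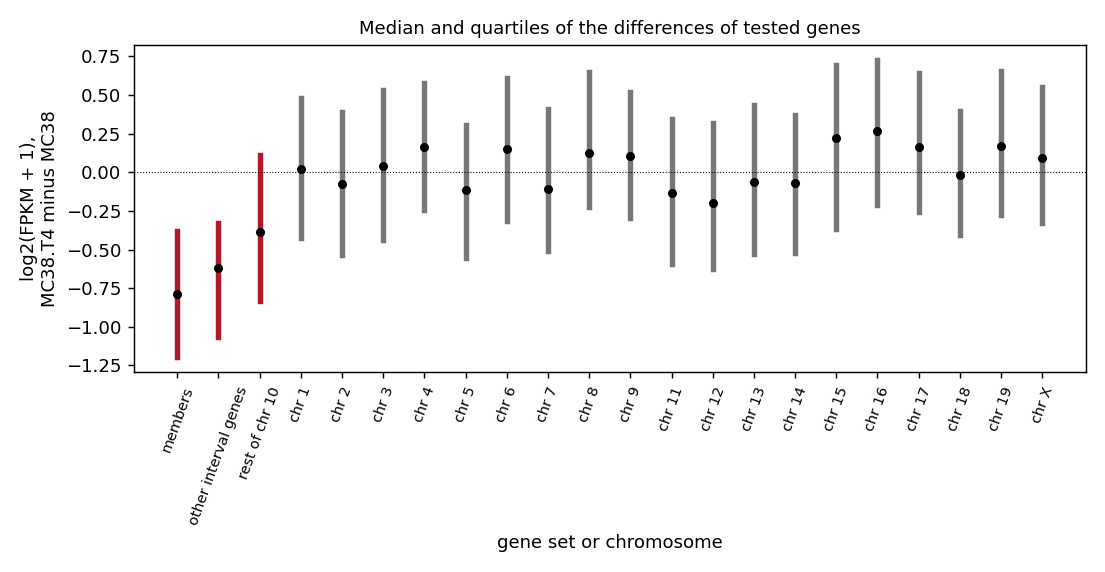
Dots are the median and bars the quartiles of log2(FPKM + 1) differences, MC38.T4 minus MC38, over tested genes: members, other interval genes and the rest of chromosome 10 in red, each other chromosome in grey. The median is -0.79 for members, -0.62 for other interval genes and -0.39 for the rest of chromosome 10, against -0.20 to 0.27 on the other chromosomes.

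Genes whose products work with those of the members, taken from 17 lists, showed no common direction. Of 160 partner genes 157 were found, 5 of them on chromosome 10, and 141 were tested. Of these 56 were called lower (39.7%) and 64 higher (45.4%), against 42.9% and 43.1% of all tested genes, and their median log2 difference was 0.08. Around TAB2, the TAK1 signalling list had 5 of 9 tested genes lower and 2 higher. The ubiquitin ligase gene Traf6 fell to 5.75 FPKM in MC38.T4, against 16.3 FPKM in MC38. The alternative adaptor gene Tab3 fell to 6.21 FPKM in MC38.T4, against 11.1 FPKM in MC38, and Tab1 rose to 10.2 FPKM in MC38.T4, against 6.88 FPKM in MC38. In the ASK1 to JNK and p38 list 2 of 9 fell and 6 rose, led by Map2k6 with 5.06 FPKM in MC38.T4 and 0.733 FPKM in MC38, which passed the filter only through MC38.T4. In the list of SCF ligase and of the anaphase-promoting complex, which the product of Fbxo5 holds back, 12 of 16 rose and 2 fell. The mitotic kinase gene Plk1 rose to 55.9 FPKM in MC38.T4, against 11.6 FPKM in MC38 and the activator gene Cdc20 to 103 FPKM in MC38.T4, against 34.4 FPKM in MC38. Of 4 tested HIF, p300 and TFAP2 genes around CITED2, 2 fell, Crebbp (5.17 FPKM in MC38.T4 and 10.9 FPKM in MC38) and Ep300 (13.5 FPKM in MC38.T4 and 26.3 FPKM in MC38), and Hif1a rose (40.7 FPKM in MC38.T4 and 28.3 FPKM in MC38).

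Of the 5 lists of RNA and protein synthesis, all but that of tRNA deaminases held more falls than rises. Of 9 small-subunit maturation genes 7 fell and 1 rose (median log2 difference -0.81), among them Dimt1 (14.6 FPKM in MC38.T4 and 35 FPKM in MC38) and Pno1 (59.5 FPKM in MC38.T4 and 134 FPKM in MC38), while the kinase gene Riok1 rose (21.4 FPKM in MC38.T4 and 11.2 FPKM in MC38). Of 6 SF3B genes 4 fell and 1 rose, with Sf3b4 at 86.9 FPKM in MC38.T4 and 155 FPKM in MC38 and Sf3b2 at 157 FPKM in MC38.T4 and 116 FPKM in MC38. Of 4 ribosome rescue genes 3 fell and none rose, and Pelo, the partner of Hbs1l, was not called (10.5 ± 0.57 FPKM in MC38.T4 and 10.8 ± 0.73 FPKM in MC38). Of 8 mitochondrial translation factors 5 fell and 2 rose, Mtrf1 being at 3.18 FPKM in MC38.T4 and 8.13 FPKM in MC38. Adat3, the other subunit of the tRNA deaminase, was called higher (1.07 FPKM in MC38.T4 and 0.808 FPKM in MC38), and Adat1, which acts alone on another tRNA, was not called.

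Of the other lists, all but that of glycogen genes held both rises and falls. Peroxin genes gave 8 rises and 5 falls of 14, with Pex19, the partner of Pex3, at 24.4 FPKM in MC38.T4 and 13.8 FPKM in MC38 and Pex2 at 12.9 FPKM in MC38.T4 and 23.7 FPKM in MC38. The dystroglycan list gave 4 falls and 2 rises of 7: Dmd, the dystrophin gene, fell to 0.155 FPKM in MC38.T4, against 1.89 FPKM in MC38 (it and Sspn passed the filter only through MC38), and Dag1 rose to 48.8 FPKM in MC38.T4, against 23.2 FPKM in MC38. Of 12 ESCRT-III and VPS4 genes 7 fell and 3 rose, with Chmp1b at 8.9 FPKM in MC38.T4 and 18.4 FPKM in MC38 and Chmp2a at 64.1 FPKM in MC38.T4 and 47.4 FPKM in MC38. Of 7 SNARE and Munc18 genes 6 rose and 1 fell, Stx3 falling to 15.7 FPKM in MC38.T4, against 46.7 FPKM in MC38 and Stx4a rising to 19.2 FPKM in MC38.T4, against 7.43 FPKM in MC38. Ciliary transition zone genes gave 7 rises and 3 falls of 14, among them Tmem216 (18.2 FPKM in MC38.T4 and 5.84 FPKM in MC38) and Tmem231 (2.96 FPKM in MC38.T4 and 5.84 FPKM in MC38). All 5 tested glycogen genes rose, with the branching enzyme gene Gbe1 at 17.6 FPKM in MC38.T4 and 8.17 FPKM in MC38. The list around Sgk1 gave 4 rises and 4 falls of 10, the SGK substrate genes Foxo3 and Ndrg1 falling to 7.76 FPKM in MC38.T4, against 19.5 FPKM in MC38 (Foxo3), and to 43.4 FPKM in MC38.T4, against 94.9 FPKM in MC38 (Ndrg1). In the list of MYB relatives and reported targets 3 of 5 rose and 2 fell, Ccnb1 being at 109 FPKM in MC38.T4 and 41.3 FPKM in MC38 and Mybl2 at 21.1 FPKM in MC38.T4 and 23.2 FPKM in MC38.

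Markers of other cell types were read beside the members. Of 10 fibroblast and pericyte markers 5 were tested and all 5 were higher in MC38.T4, 3 of them (Pdgfrb, Col1a2 and Acta2) tested only through their level there, with a summed level between 103 and 112 FPKM in MC38.T4 and between 28.2 and 31.6 FPKM in MC38, and Thy1 listed at 0. Lymphocyte markers summed to between 2.62 and 3.46 FPKM in MC38.T4 and between 2.96 and 3.19 FPKM in MC38, with Cd3e and Cd8a at 0. Nearly all of that sum was Lck, the only one tested, which averaged 2.81 FPKM in MC38.T4 and 3.01 FPKM in MC38 and was not called. Myeloid markers summed to between 5.32 and 7.69 FPKM in MC38.T4 and between 7.09 and 8.68 FPKM in MC38, with Adgre1 at 0. Endothelial markers summed to at most 1.18 FPKM in MC38.T4 and 0.565 FPKM in MC38, with Emcn at 0. Their part in the members' difference was not tested.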

How the data were processed

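RNA from 5 MC38.T4 and 5 MC38 libraries was made into strand-specific polyA libraries with a TruSeq kit, per the labels' protocols. The authors deposited 1 table of FPKM, with 1 column per library, matched here to samples by library name. The submitters' processing notes name the build GRCm39 and DESeq2, without version or role. For aligner, counting program and annotation, names were not given in the sources used here. FPKM keep no read counts, so no counting interval could be given. Sums of FPKM lay between 442183 and 484460.

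Differences are MC38.T4 minus MC38 on log2(FPKM + 1), a scale that compresses differences of low genes. Genes with FPKM of at least 1 in at least 5 libraries were tested with limma 3.58.1 in R 4.3.3 (trend and robust moderation, group term, two-sided, Benjamini-Hochberg over 11110 genes, threshold 0.05). The code was tested on simulated data. Ratios are of mean FPKM. Map order came from RefSeq genes of GRCm38.p6, which placed 10836 of the tested genes; gene overlaps came from GENCODE M21. Python 3.11.15, pandas 2.3.3, NumPy 2.4.6 and matplotlib 3.10.9 were used.

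The members and lists were chosen with earlier results of these data known. Fully described are the 6 lowest, 6 highest and 3 median ratios among tested members, 2 members at each end, and Myb, Sgk1, Cited2, Map3k5, Fbxo5, Utrn and Perp. Of other interval and flanking genes (15 nearest), the 3 largest differences in each direction were named, and of partner lists up to 2 in each direction. Lats1, Pcmt1, Nup43, Pelo, Adat1, Sspn, B230208H11Rik, Eya4, 9330159F19Rik and single marker genes were named after their values were seen. Tried as alternatives were TPM, quantile normalization, equal medians, the replicate block, no filter, a minimum FPKM of 5, a pseudocount of 0.1 and leaving out libraries. Map stretches and the joint removal of a pair of libraries were chosen after seeing the data.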

Additional observations from a re-analysis of the deposited data

Results flagged for a closer look

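In 8 of 86 groups of 5 libraries (a member in a line) 1 library stood apart from the other 4, where chance gives about 1 in 20. Of these, 6 were MC38 replicate 1. It held the highest level of Tab2 (117 FPKM, against 107 to 110.0 in the other MC38 libraries), Sash1 (5.97, against 4.68 to 4.97 FPKM), Utrn (18.2, against 13.3 to 14.5 FPKM), Nhsl1 (8.95, against 7.44 to 7.70 FPKM) and Ahi1 (13.4, against 12.1 to 12.3 FPKM), and the lowest of Abracl (69.2, against 76.7 to 77.1 FPKM). Without that library the calls of all 30 lower and both higher members were kept. Below the filter, Myb was highest in MC38 replicate 4 (0.272 FPKM, against 0.168 to 0.198 in the other MC38 libraries), and Fuca2 was at 0.0118 FPKM in MC38.T4 replicate 1 and at 0 in the other 4 MC38.T4 libraries.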

How the results depend on the processing

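The 30 members called lower were the same genes with a pseudocount of 0.1, TPM, quantile normalization, equal medians and with each library left out. They also remained without both MC38 replicate 1 and MC38.T4 replicate 4, a setting added after seeing the data. A minimum FPKM of 5 tested 30 members, of which 26 were lower. With no filter all 44 were tested, 34 lower and 6 higher; Fuca2, Map3k5, Myb and Pde7b joined the lower and Akap12, Epm2a, Aig1 and Txlnb the higher. The call of Sgk1 was lost with TPM. The median log2 difference of the members (-0.79) became -0.83 with a pseudocount of 0.1 and -0.86 with TPM. Both settings give the added constant less weight, and TPM also rescales each library by its own sum. The median became -0.62 with no filter and -0.65 with a minimum FPKM of 5, by construction over other genes. Without each library in turn it lay between -0.81 and -0.77. No scaling moved the median of all tested genes by more than 0.05. Replicate numbers did not pair the libraries (correlations of deviations between -0.13 and 0.14, none of the 5 MC38.T4 libraries best with its own number); with the replicate block 30 members were lower, as without it, and 9534 genes were called, against 9555. Among 325 combinations of a fully described member and an alternative, 306 moved by less than the SD between libraries and 19 by more, none with a change of sign of a called member. Many of the 306 were fixed in advance. The filter settings and the replicate block leave a member's difference unchanged, and leaving out 1 of 5 libraries cannot move it by a full SD. Only the other pseudocount and the rescalings could do so, and the count of 306 is thus no measure of robustness. Read totals are not known, which limits the low members most: Perp, Map7, Pde7b and Akap12 lay near 0.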
